A study of Bos grunniens x Bos taurus and Bos grunniens with 12 samples.

Results

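The 57 entries described here are unannotated arms of cattle miRNA precursors, found in small RNA from milk exosomes of Jeryak and yak. They carry the name of a cattle (bta) precursor followed by p5 or p3, which marks reads from the 5′ or 3′ arm of the hairpin at a place where miRBase 22 lists no mature miRNA. The table of 2263 entries holds 115 of them, and the 57 are those with a norm value above 0 in at least 2 of the 12 libraries. The other 58 were above 0 in 1 library only, with values of 0.0739 to 21.1 (median 1.42) in that library. The 16 just inside the rule, above 0 in exactly 2 libraries, had a highest value of 0.427 to 29.5 (median 2.65). The members were thus selected on their norm values, by detection, so their detection is described without a test.

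Exosomes are small vesicles that cells release, here recovered from milk. The libraries fall into 4 groups of 3, December Jeryak, June Jeryak, December yak and June yak. Jeryak is the cross of yak with Jersey cattle, labelled Bos grunniens x Bos taurus. The lactating animals were 4 to 5 years old and had no treatment. The methods and labels do not say whether the June and December milk came from the same animals or whether each library is 1 animal, so p-values measure the spread between these libraries, which may be partly technical. Any batch tied to the month or the breed cannot be told apart from it, nor can fewer vesicles or cells of a type be told apart from less RNA in each.

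A miRNA precursor is a hairpin cut from its transcript by Drosha, and Dicer then removes the loop to leave a duplex with 1 strand from each arm. Usually 1 strand, the guide, is loaded into Argonaute and accumulates, while the passenger strand is degraded, and the strand that dominates can differ between tissues. Bases 2 to 8 of the loaded strand, the seed, do most of the pairing with target mRNAs, so the 2 arms of a hairpin address different targets. The miR-2284 and miR-2285 family is a large group of related precursors known from cattle and other ruminants.

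The sequences below, read 5′ to 3′ in the DNA letters of the deposited table, are the arms whose values differed between groups or that stood highest, each with the mature row of the same precursor where 1 was found. Capitals mark the seed.

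bta-mir-2887-2-p5: gTCCGGTGcggagagcccttcgtccc
bta-mir-2904-2-p3: cGTCCCCGccggcgggcc
bta-miR-2904_L-1R+3: gGAGCCTCggttggcctcgga
bta-mir-6715-p3: cCAAACCAgttgtgcctgtag
bta-miR-6715: aCAGGCACggccagtttgagc
bta-mir-2285t-p5: aAAAGTTCgttcaggtttttct
bta-miR-2285t: aGAATCTGgatgaactttttgg
bta-mir-2340-p3_1ss14TA: tCCCTGGTggtctagtgc
bta-mir-7858-p5: tAGGATTTggaaagattgct
bta-mir-339a-p3: cGCTCCTCgaggccagagccc
bta-mir-7862-p5: cACAGCTCcaggggacgccgtt
bta-miR-7862: tGGTGCTCcctggagctgagc

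In each of the pairs shown with a mature row, the seeds of the arm and of the mature miRNA have different letters. The ends of a name say how a read differs from the database entry. L and R give bases lost or gained at the 5′ and 3′ end, and 1ss14TA marks 1 mismatch at position 14, a T in the precursor read as A. In all 25 tagged members the letter at the tagged position was the last letter of the tag.

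The members split into 34 arms of the miR-2284 and miR-2285 family (18 p5 and 16 p3) and 23 arms of other precursors. The family arms were poor in G and C, with a median of 31.8% (20 to 60.9%). The others were rich in them, with a median of 60% (33.3 to 94.4%), and the highest was bta-mir-2904-2-p3 at 94.4%. A mismatch tag stood on 19 family members (55.9%) and on 6 others (26.1%). The 34 family members held 25 distinct sequences and the 57 members 48. A read that matches several precursors is listed under each of them, so members with the same sequence have the same values and are 1 measurement.

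Most family members share letters. AAAAGTTC occurred in 17 of the 18 family p5 members and in 49 of all 2263 entries (2.17%), 23 of them cattle mature rows. Its reverse complement GAACTTTT occurred in 10 of the 16 family p3 members and in 53 of all entries (2.34%). The p5 arms therefore carry on 1 strand what most p3 arms carry on the other, as the next lines show with the shared letters in capitals.

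bta-mir-2285e-2-p5: aAAAAGTTCgtttgggtttt
bta-mir-2284y-1-p5: AAAAGTTCgttcgggttttt
bta-mir-2284z-2-p3: aaacccagatGAACTTTTtggc
bta-mir-2285cq-p3: aaaactggaatGAACTTTTtgg
bta-mir-2284w-p3_1ss11TC: aaaacctcaacGAACTctttgg

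In bta-mir-2284w-p3 the run stops after GAACT. The members had 39 distinct seeds, of which 5 were shared by at least 2 members. The seed AAAGTTC was carried by 11 members with 7 distinct sequences and by 13 cattle mature rows, and AAAAGTT by 5 members and 9 cattle mature rows. Altogether 26 members, all of the family, shared a seed with a cattle mature row, while 0 of the 23 other members did. A run of 14 letters in common with another entry of different sequence was found for 27 family members and 1 other member, so reads of the family could be divided among near-identical entries, and the values of single family members are uncertain for that reason.

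A pair of shorter runs linked arms of other precursors. TCCCTGGTGGTC opened bta-mir-2340-p3 and followed the first base of bta-mir-12063-p5, and occurred in 3 entries in all (0.133%), with its reverse complement in 1 entry. GGTTCGA was in both arms of bta-mir-12036 and in 3 entries in all (0.133%), with its reverse complement in 0. As background, transfer RNAs carry GGTTCGA in their T arm, and the transfer RNA for glutamate begins with the letters of bta-mir-2340-p3. No transfer RNA sequence was compared, and whether such molecules gave these reads was not tested.

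bta-mir-2340-p3_1ss14TA: TCCCTGGTGGTCtagtgc
bta-mir-12063-p5_1ss18AG: tTCCCTGGTGGTCcagtggt
bta-mir-12036-p5_1ss1GC: ctccgtggacgccGGTTCGA
bta-mir-12036-p3_1ss2CG: cgGGTTCGAgccccgtcc

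Most members had the length of a Dicer product. Of the 57, 45 (78.9%) were 20 to 22 nt long and 21 were 22 nt, with a median of 21 nt, against a median of 22 nt in the 28 mature rows of the same precursors, 26 of which were 20 to 22 nt. Among all 468 cattle mature entries 73.9% were 20 to 22 nt. The 5 members of 18 nt all came from other precursors than the family and include bta-mir-2904-2-p3 and bta-mir-2340-p3, while bta-mir-2887-2-p5 had 26 nt, the longest of all. Argonaute is known to favour U, and next A, at the 5′ end. The members began with A in 32 cases (56.1%) and with T in 8 (14%). The mature rows did so in 13 (46.4%) and 10 (35.7%) of 28 cases, and all cattle mature entries in 34.0% and 41.2%. Most of the A starts were in family arms, many of them near-identical in sequence. Among the other members few began with A, and C was the commonest first base.

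**Figure D1:**
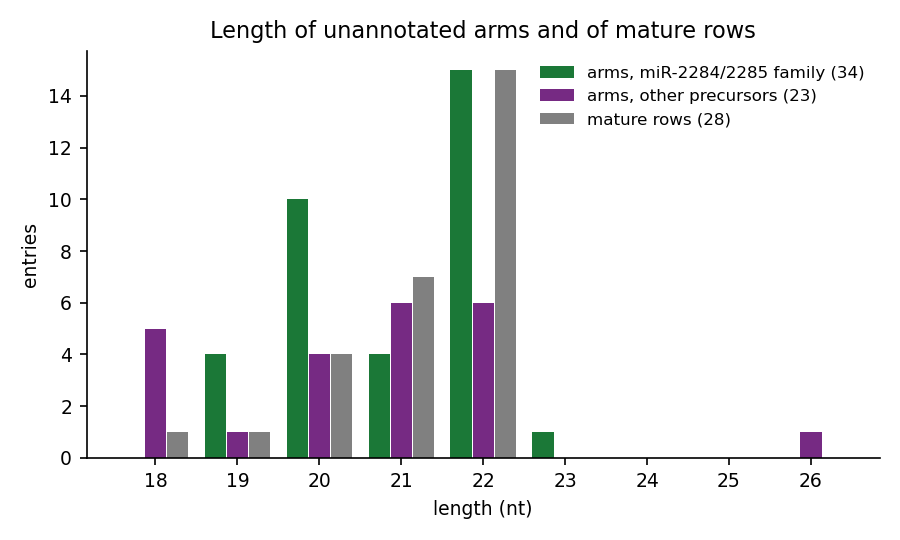
Number of entries at each length in nt, for the 34 family members, the 23 other members and the 28 mature rows of the same precursors. Both sets of members and the mature rows stand highest within 20 to 22 nt, the 5 members of 18 nt belong to the other precursors, and the single member of 26 nt is bta-mir-2887-2-p5.

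The levels were low and uneven. A norm value is the copy number of an entry multiplied by 1 factor per library, and the 57 members together held 0.213 to 0.742% of the summed norm values of a library. The 4 highest members held 86.9% of the members' sum and bta-mir-2887-2-p5 alone held 36.4%. A mean of at least 10 over the 12 libraries was reached by 13 members, and 20 had a mean under 1. Family members had a median of 0.987 and the other members of 3.40.

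Depth differed between the groups, and with it the lowest value an entry could have. Copies summed over all entries were 2281110 to 6168480 in December Jeryak, 294073 to 354008 in June Jeryak, 315876 to 840850 in December yak and 247528 to 614066 in June yak. A copy was worth a norm value of 0.127 to 0.269 in December Jeryak and of 0.730 to 3.30 in the other 9 libraries. Over the 12 libraries only 237 values stood at 1 to 4 whole copies, against 1606 at 5 to 8 copies, and among members with no identical row 2 of 162 whole copy numbers were under 5. A listed 0 of a member with no identical row therefore leaves room for about 5 copies, which is a norm value of 0.635 to 1.35 in December Jeryak, 9.24 to 12.3 in June Jeryak, 3.65 to 9.32 in December yak and 5.10 to 16.5 in June yak. All 12 markers of milk epithelium were found, with sums of 243944 to 485812 over the 12 libraries. Leukocyte markers (5 of 6 found) summed to 720 to 7930 in December Jeryak, 88.8 to 233 in June Jeryak, 446 to 675 in December yak and 110 to 314 in June yak, and 2 of the 5 were at 0 in each June group. Markers of red cells (3 of 3 found) summed to 15.4 to 22.6, 46.9 to 185, 39.2 to 173 and 104 to 781 in the groups in that order, those of stroma and endothelium (4 of 6) to 216 to 2706 and those of muscle, liver and neurons (4 of 6) to 4.62 to 174 over the 12 libraries.

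More members were listed in December Jeryak than in any other group. There 40, 50 and 39 of the 57 were above 0, against 18, 31 and 20 in June Jeryak, 17, 15 and 14 in December yak and 13, 22 and 15 in June yak. Cattle mature entries went the same way, with 70.1 to 90.2% above 0 in December Jeryak and 41.0 to 58.3% in the other 3 groups. Over all 2263 entries the share was 31.6 to 41.1% in December Jeryak, 27.1 to 48.9% in June Jeryak, 19.8 to 23.1% in December yak and 24.3 to 25.9% in June yak, so there June Jeryak reached as high as December Jeryak. At a norm value of 16.5, which is 5 copies in the library where a copy is worth most, the excess of December Jeryak was gone. Members at that value or above numbered 6, 12 and 8 in December Jeryak, 5, 16 and 12 in June Jeryak, 8, 8 and 10 in December yak and 9, 6 and 8 in June yak. Of 14 members listed in December Jeryak alone, 11 stayed under the value of 5 copies in every other library, so their absence elsewhere was not detectable at this depth. Together with these, 26 members were listed in Jeryak only, and 0 in yak only. The rule admits members by detection, and 55 of the 57 were above 0 in at least 1 of the deeper December Jeryak libraries. These counts therefore do not compare the breeds, and no such count was made over all 2263 entries. Of the 26, 12 were also listed in June Jeryak, whose depth was like that of yak, but 0 in that group alone. The value of 5 copies of every yak library was exceeded by 5 of the 26 in at least 1 Jeryak library. The highest value of the 26 was that of bta-mir-2284w-p3, with 13.5, 190 and 3.10 in December Jeryak and 0, 14.7 and 0 in June Jeryak. The highest in a June Jeryak library was that of bta-mir-9851-p5, named after its values were seen. It had 2.66, 0 and 3.50 in December Jeryak, 11.1, 0 and 71.6 in June Jeryak and 0 in all yak libraries.

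**Figure D2:**
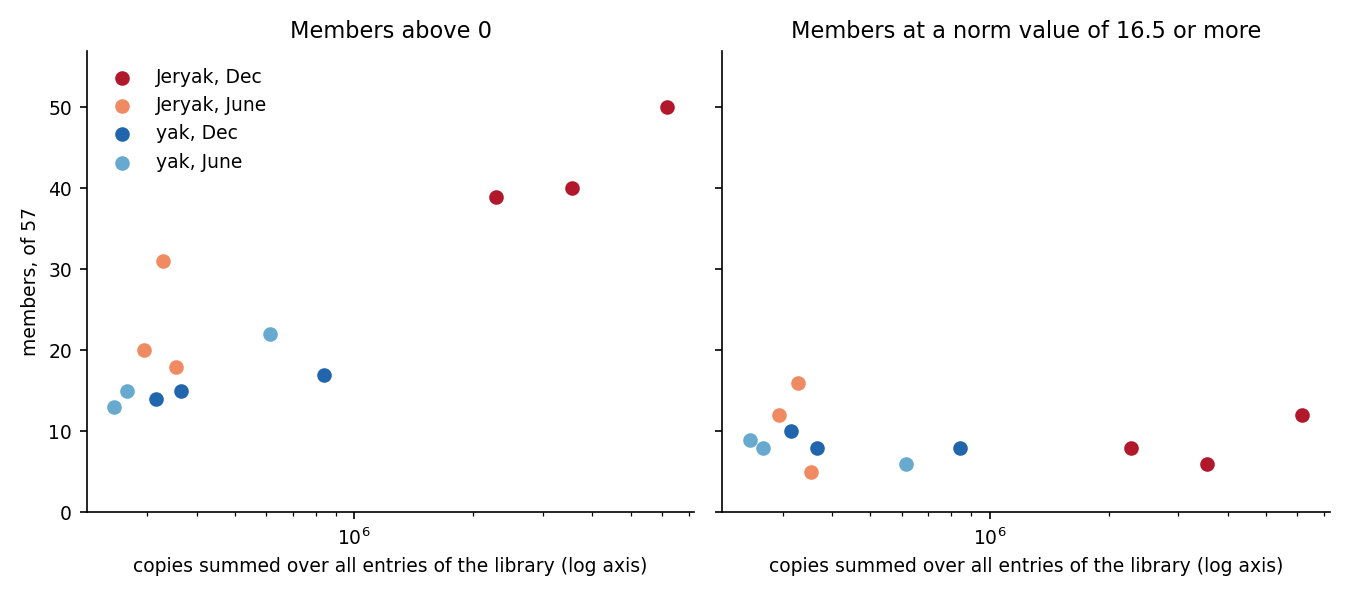
Number of the 57 members above a norm value of 0 (left) and at 16.5 or more (right), against copies per library on a log axis, 1 point per library. The 3 December Jeryak libraries, with the most copies, list 39 to 50 members above 0, and at 16.5 or more they lie among the other groups with 6 to 12.

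Presence in every library was rarer for unannotated arms than for mature miRNAs. Of the 115 entries 7.83% were above 0 in all 12 libraries, against 30.6% of the 468 cattle mature entries, 12.9% of the 526 entries named after other species and 0.347% of the 1154 predicted candidates. The 9 members in all 12 libraries include bta-mir-2887-2-p5, bta-mir-2285t-p5, bta-mir-2904-2-p3, bta-mir-7858-p5, bta-mir-339a-p3 and the single sequence listed as bta-mir-2285e-2-p5, bta-mir-2285cb-p5 and bta-mir-2285cd-p5. A further 9 members were in 6 to 11 libraries and 39 in 2 to 5.

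The highest member, bta-mir-2887-2-p5, is the GC-rich 26 nt 5′ arm of a cattle precursor. Its norm values were 397, 1168 and 297 in December Jeryak, 893, 2171 and 1744 in June Jeryak, 89.7, 289 and 221.8 in December yak and 2026, 1156 and 1004 in June yak. It was lowest in December yak, whose libraries all lay below those of the other 3 groups. No mature row of bta-mir-2887 was found by name.

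The highest family member, bta-mir-2285t-p5, was abundant in every library. It had 628, 491 and 770 in December Jeryak, 731, 1476 and 1029 in June Jeryak, 460, 344 and 442 in December yak and 545, 602 and 755 in June yak. Its 12 values spanned less than those of its mature row bta-miR-2285t, which had 2178, 1332 and 2021 in December Jeryak, 2672, 5775 and 6894 in June Jeryak, 1310, 1152 and 1306 in December yak and 1957, 2915 and 7900 in June yak. The arm stayed below its mature row in all 12 libraries, with 8.72 to 27.6% of the sum of both.

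The arm bta-mir-2904-2-p3 separated the months in yak. It had 54.1, 109 and 108 in December Jeryak, 9.24, 229 and 382 in June Jeryak, 224, 695 and 585 in December yak and 16.5, 14.3 and 13.4 in June yak. The June yak values stand for 5, 14 and 5 copies, and the June Jeryak libraries were spread from near that level to above all December Jeryak libraries. The mature row bta-miR-2904 went the other way, with 251, 534 and 316 in December Jeryak, 2870, 10977 and 2803 in June Jeryak, 679, 3377 and 1567 in December yak and 23078, 11351 and 36648 in June yak.

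The arm bta-mir-6715-p3 was present in every library but 2 of June yak. It had 126.4, 68.5 and 139 in December Jeryak, 135, 44.2 and 88.8 in June Jeryak, 78.1, 65.4 and 82.0 in December yak and 0, 38.7 and 0 in June yak. Its mature row bta-miR-6715 had 62.1, 23.6 and 72.5 in December Jeryak, 59.1, 135 and 64.2 in June Jeryak, 28.5, 0 and 31.7 in December yak and 16.5, 57.1 and 42.9 in June yak. The mature row was thus listed in both June yak libraries that listed the arm at 0.

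The mismatch-tagged bta-mir-2340-p3 was a December arm in the table. It had 1.77, 3.17 and 21 in December Jeryak, 25.5, 86.6 and 41.0 in December yak and was listed at 0 in all 6 June libraries. The December Jeryak values rest on 10, 25 and 78 copies and the December yak values on 35, 53 and 22. A value such as 1.77 or 3.17 lies under 5 copies in every June library, so those libraries could not have shown it, whereas the December yak values lie above 5 copies in each of them.

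Among the remaining high members, bta-mir-7858-p5 ranged from 25.3 to 120 and bta-mir-339a-p3 from 9.24 to 86.6 over the 12 libraries. The arm bta-mir-7858-p5 had 41.7, 33.6 and 69.0 in December Jeryak, 120, 25.3 and 96.2 in June Jeryak, 54.0, 52.3 and 54.0 in December yak and 89.1, 87.7 and 96.6 in June yak, where all libraries lay above those of December yak. The 3′ arm bta-mir-339a-p3 had 15.2, 30.6 and 17.2 in December Jeryak, 9.24, 10.5 and 19.7 in June Jeryak, 19.7, 86.6 and 78.3 in December yak and 29.7, 24.5 and 40.2 in June yak, with the Jeryak libraries below the yak libraries in June. The sequence shared by bta-mir-2285e-2-p5, bta-mir-2285cb-p5 and bta-mir-2285cd-p5 ranged from 3.11 to 34.0, with overlap between all groups.

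Some members rested on few libraries. The arm bta-mir-2284w-p3 had 13.5, 190 and 3.10 in December Jeryak and 0, 14.7 and 0 in June Jeryak, and every yak library listed it at 0, so its mean of 18.4 was set largely by 1 library. The arm bta-mir-12036-p5 had 9.24, 18.9 and 101.2 in June Jeryak, 5.10 in 1 June yak library and 0 in the rest. The arm bta-mir-2284z-2-p3 had 8.33, 19.2 and 8.62 in December Jeryak, 0, 21.1 and 32.1 in June Jeryak, 0 in December yak and 0, 6.12 and 16.1 in June yak. The arm bta-mir-7862-p5 had 4.26, 2.79 and 4.04 in December Jeryak, 0, 12.6 and 34.5 in June Jeryak, 9.49, 0 and 0 in December yak and 26.4, 13.2 and 0 in June yak, with no group apart from the others.

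**Figure D3:**
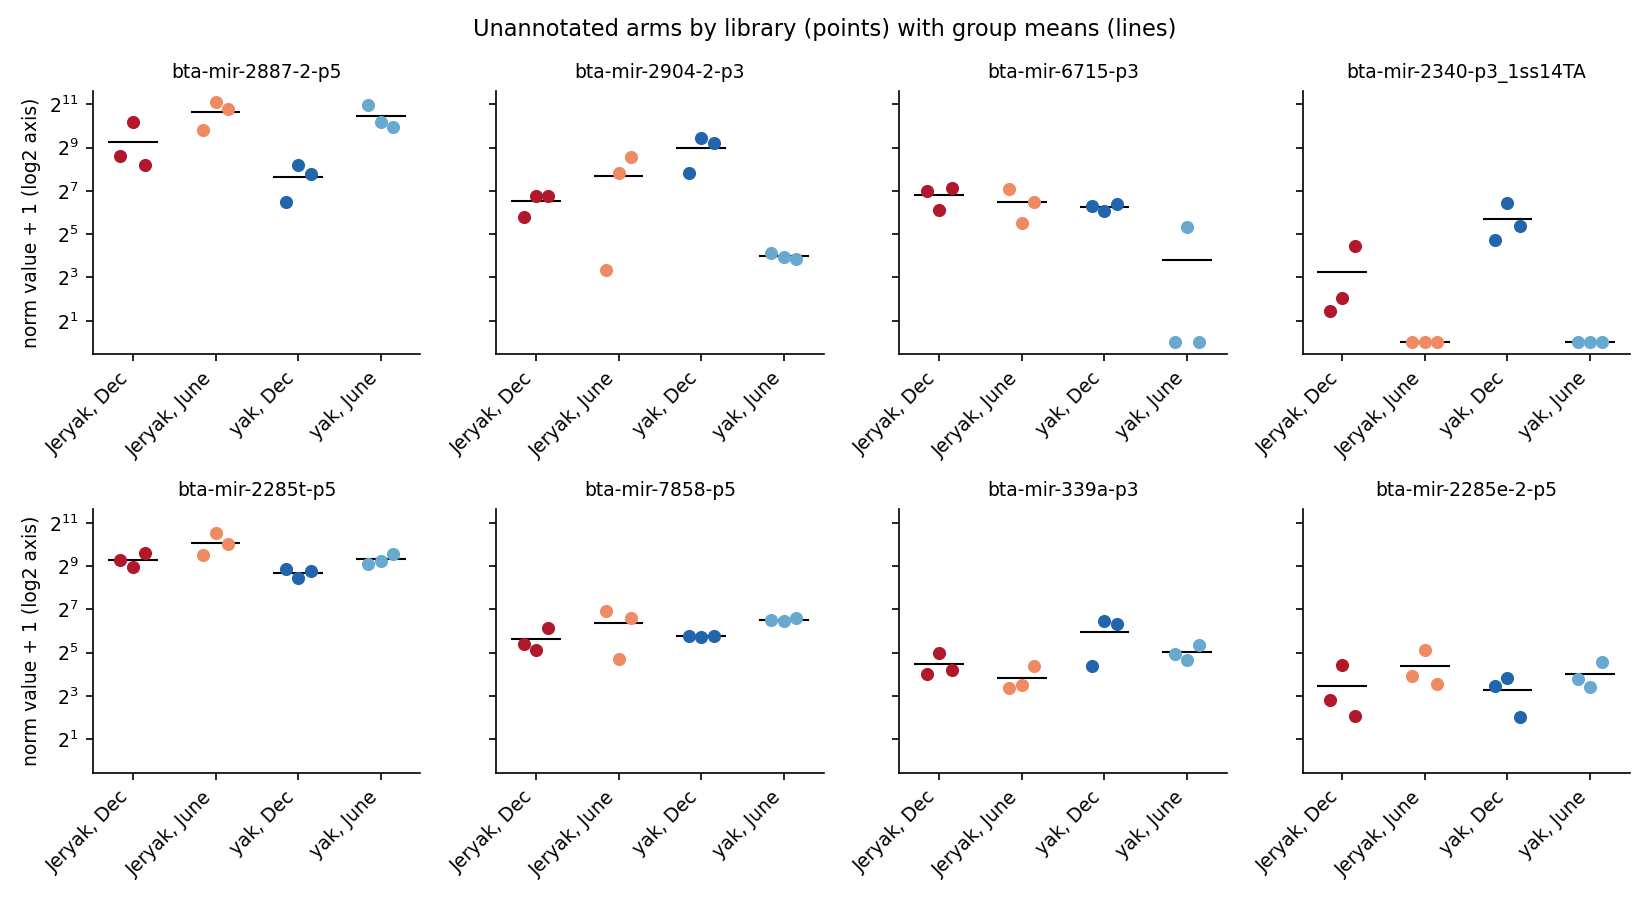
Norm value plus 1 on a log2 axis for 8 members, 1 point per library and a line at each group mean, with December Jeryak, June Jeryak, December yak and June yak from left to right. In yak the December libraries lie below the June libraries for bta-mir-2887-2-p5 and above them for bta-mir-2904-2-p3, bta-mir-6715-p3 and bta-mir-2340-p3.

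A mature row of the same precursor was found for 28 of the 57 members. The unannotated arm was below it for 18 of them, below 10% of it for 8, and at or above it for 10, with a median ratio of 0.589. Over the 28 cattle precursors of the table with both arms named, the minor arm had a median of 10.7% of the major arm and in 0 of 28 was it at or above it, since the minor arm is by definition the lower. These named pairs stood at higher levels, with median means of 15.1 for the minor and 131 for the major arm. The unannotated arms and their mature rows had 2.45 and 2.95, so the ratios were taken at unlike levels. The arms and mature rows could pair over a median of 17 base pairs, and 26 of 28 pairs had at least 14, as computed for the 2 strands alone. The pair of bta-mir-2904-2-p3 and bta-miR-2904 was not among these, with 13 base pairs. Rows were matched by precursor name without the number of a genomic copy, so the rows of a pair need not come from the same hairpin. In 14 pairs both 3′ ends hung over by 1 to 3 nt, and in 0 by 2 nt at both ends, the geometry Dicer typically leaves. No hairpin sequence was used, so the position of the arms in their precursors was not analysed here.

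The strongest imbalance was that of bta-mir-660-p3, named after its values were seen, with a mean of 0.338 against 744 for bta-miR-660 (ratio 0.000454). The arm with most reads among those above their mature row was bta-mir-6715-p3, with a mean of 72.1 against 49.4 for bta-miR-6715 (ratio 1.46 and 16 base pairs). It is followed by bta-mir-2284w-p3, with 18.4 against 1.73 for bta-miR-2284w, and by bta-mir-2285e-2-p5, with 13.4 against 0.720 for bta-miR-2285e. Reads of bta-mir-2285e-2-p5 also match other precursors, and bta-mir-2284w-p3 shares its 22 letters with a predicted candidate. Such ratios therefore need not describe a single hairpin.

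Outside the family, the arms at or above their mature rows were mostly low. The arm bta-mir-7862-p5 had a mean of 8.95 against 8.11 for bta-miR-7862, bta-mir-502b-p5 had 5.23 against 2.30 for bta-miR-502b and bta-mir-12016-p5 had 3.08 against 1.68 for bta-miR-12016. The sequences of the last 2 pairs are shown with the seed in capitals, next to the bta-mir-660 pair, in which the arm was lowest relative to its mature row.

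bta-mir-502b-p5: tAATTCTTgctccccaggtgag
bta-miR-502b_R+1: aATCCACCtgggcaaggattct
bta-mir-12016-p5: tACAGCATactgatttgactt
bta-miR-12016_R-2: tAAGTCAAatcagtatgctgt
bta-mir-660-p3: cCTCCTATgtgcatggattaca
bta-miR-660: tACCCATTgcatatcggagctg

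The 2 strands of bta-mir-12016 can pair over 20 base pairs, the most of any pair, with no overhang at either end. Both bta-mir-502b-p5 (6.74, 5.84 and 6.74) and bta-mir-12016-p5 (3.37, 2.16 and 3.50) were listed in all December Jeryak libraries and in 0 of the June Jeryak libraries. Those values lie under 5 copies in every June Jeryak library, so the difference was not detectable at that depth. The single sequence listed as bta-mir-2284k-p3, bta-mir-2284aa-1-p3 and bta-mir-2285al-p3 shows how shared reads act on such ratios. Its mean of 2.81 stood against 0.0317 for bta-miR-2284k, 0.0635 for bta-miR-2285al-5p and 6.05 for bta-miR-2284aa.

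**Figure D4:**
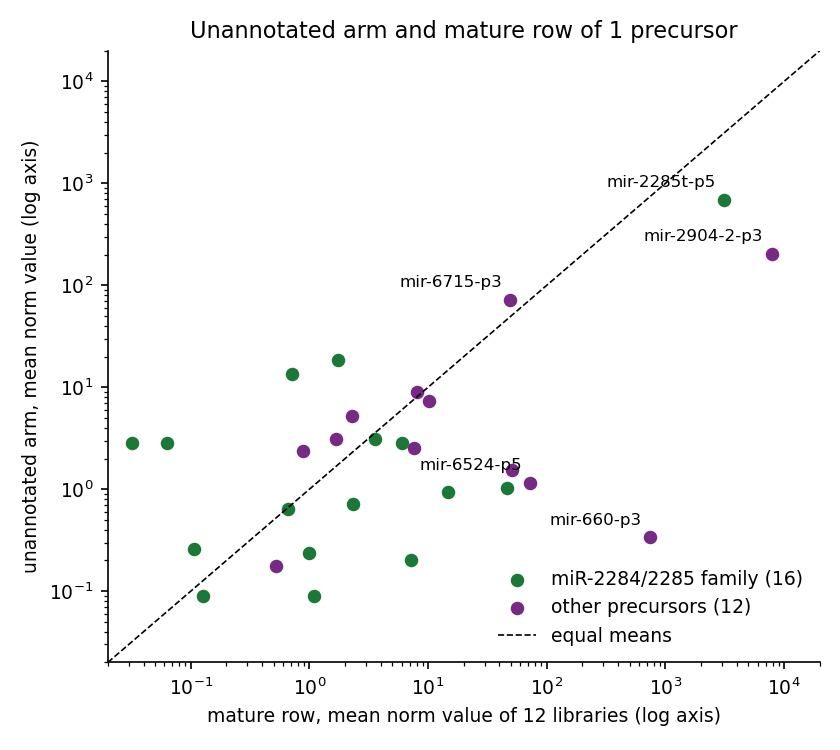
Mean norm value of the unannotated arm over the 12 libraries against that of the mature row of the same precursor, both on log axes, for 16 pairs of the family and 12 others. The dashed line marks equal values, and 10 of the 28 arms lie on or above it, most of them at means under 20.

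Differences between groups were tested with limma on log2(norm value + 1), over the 620 entries that reached a norm value of 10 in 3 libraries or more, and p-values were adjusted over all 620. Of the 57 members 14 entered, with 12 distinct sequences, 6 of the family and 8 others. The remaining 43 were too low. Differences are on the log2(norm value + 1) scale, which understates those of low entries with reads listed in every library compared. For an entry with no reads listed in some library, the fitted difference depends on the value added and can be too large. A positive difference stands for a higher level in Jeryak for the breed comparisons and in December for the month comparisons.

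In yak, 4 of the 14 tested members differed between December and June, 3 higher and 1 lower in December (background 34% of the 620 entries, 11.5% higher and 22.6% lower). The GC-rich arm bta-mir-2904-2-p3 averaged 501 ± 246 in December and 14.7 ± 1.59 in June (SD, n = 3 each), a log2 difference of 4.85 ± 1.05 (SE, limma adjusted p = 0.00268). The arm bta-mir-6715-p3 averaged 75.2 ± 8.69 in December and 12.9 ± 22.4 in June (4.47 ± 1.15, adjusted p = 0.00804). The arm bta-mir-2340-p3 averaged 51.1 ± 31.8 in December and was listed at 0 in June (adjusted p = 0.000368). The fitted difference of that arm depends on the value added before the log and is no bound. The lower member was bta-mir-2887-2-p5, with 200 ± 102 in December and 1395 ± 552 in June (−2.88 ± 0.58, adjusted p = 0.00167).

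In these 4 arms the December and June yak libraries lay apart, as they also did for bta-mir-2285t-p5 and bta-mir-7858-p5, which did not pass. Over the 14 members the median log2 difference was −0.68, against −0.59 over all 620 entries, and 6 of 14 members did not overlap between the months (42.9% of entries). All 4 calls held without any 1 of the 12 libraries, with adjusted p of at most 0.0455. That of bta-mir-6715-p3 was lost when the 6 yak libraries were fitted alone (adjusted p = 0.109, 1.4e-05 to 0.109 over its alternatives). An alternative chosen after seeing the data set every value under 16.5 to 16.5, which removes differences that a shallow library could not show. With it all 4 calls held, at 4.69 for bta-mir-2904-2-p3, 1.72 for bta-mir-6715-p3, 1.40 for bta-mir-2340-p3 and −2.88 for bta-mir-2887-2-p5. Leukocyte markers were also higher in December yak, at 446 to 675 against 110 to 314. Those of stroma and endothelium had 722 to 2348 in December yak and 261 to 1033 in June yak. Red cell markers had 39.2 to 173 in December yak and 104 to 781 in June yak. The part of any of these cell types in the differences was not tested.

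In Jeryak, 1 of the 14 members differed between December and June (background 40.8% of entries in either direction and 11.9% higher). It was bta-mir-2340-p3, with 8.66 ± 10.7 in December against 0 in each June library (limma adjusted p = 0.0345). Of its December values, 1.77 and 3.17 lie under 5 copies in every June Jeryak library, while 21 in December Jeryak 3 lies above. With values under 16.5 set to 16.5 its difference was 0.11 (adjusted p = 0.884, 0.0141 to 0.884 over its alternatives). It was also lost without any 1 of 5 libraries (December Jeryak 2 or 3, June Jeryak 1 or 3, or December yak 3, adjusted p up to 0.153). The arm bta-mir-2887-2-p5 had 620 ± 477 in December and 1603 ± 651 in June, with overlap of the libraries (−1.54 ± 0.58, adjusted p = 0.0511). It passed without December Jeryak 2, June Jeryak 1, December yak 1 or December yak 2, with an adjusted p as low as 0.0135, and bta-mir-2285t-p5 passed without June Jeryak 1 (adjusted p = 0.0424). The members' median was −0.34, against −0.61 over all entries, and 1 of 14 did not overlap (46.9% of entries).

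Between the breeds in June, 1 of 14 members passed, and it was higher in Jeryak (background 5% of entries in either direction and 2.58% higher). The arm bta-mir-6715-p3 averaged 89.3 ± 45.4 in Jeryak and 12.9 ± 22.4 in yak (4.59 ± 1.15, limma adjusted p = 0.0364). The call was lost without any 1 of 9 of the 12 libraries, among them each June Jeryak library and June yak 1 or 3 (adjusted p up to 0.139), and with values under 16.5 set to 16.5 (1.83, adjusted p = 0.0759, 0.000355 to 0.487 over its alternatives). The arm bta-mir-2904-2-p3 was at 207 ± 188 in Jeryak and 14.7 ± 1.59 in yak, with overlapping libraries (2.63 ± 1.05, adjusted p = 0.177). It passed without June Jeryak 1, the library at 9.24 (4.25, adjusted p = 0.0021). The members' median was 0.28, against 0.35 over all entries, and 2 of 14 did not overlap (15.3% of entries).

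Between the breeds in December, 0 of 14 members passed by limma (background 5.97%), and 5 had an unadjusted p under 0.05 (background 17.3% by that rule). Of these, 3 were higher in Jeryak. The arm bta-mir-2887-2-p5 averaged 620 ± 477 in Jeryak and 200 ± 102 in yak (1.52 ± 0.58, adjusted p = 0.177), while bta-mir-2284w-p3 (adjusted p = 0.0709) and bta-mir-2284z-2-p3 (adjusted p = 0.158) were listed at 0 in yak. The others were lower in Jeryak, bta-mir-2904-2-p3 with 90.3 ± 31.4 in Jeryak and 501 ± 246 in yak (−2.37 ± 1.05, adjusted p = 0.265) and bta-mir-2340-p3 with 8.66 ± 10.7 in Jeryak and 51.1 ± 31.8 in yak (−2.86 ± 0.92, adjusted p = 0.0837). In all 5 the libraries of the breeds lay apart, as they did for 7 of the 14 members and 25% of all entries. For bta-mir-2284w-p3 and bta-mir-2284z-2-p3 this rests on listed zeros in December yak, where 5 copies were worth 3.65, 8.17 and 9.32. The 3.10 of bta-mir-2284w-p3 in December Jeryak 3 lies under each of these. The 8.33 and 8.62 of bta-mir-2284z-2-p3 in December Jeryak 1 and 3 lie under that of December yak 3. Leaving out December Jeryak 3 gave an adjusted p of 0.0487 for both bta-mir-2284w-p3 and bta-mir-2340-p3, and leaving out June Jeryak 1 gave 0.0174 for bta-mir-2904-2-p3.

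Whether the months differed by another amount in Jeryak than in yak was tested as an interaction, in which 0 of 14 members passed (background 5.48%) and 3 had an unadjusted p under 0.05 (background 18.4% by that rule). The largest was that of bta-mir-2904-2-p3, at −5.00 ± 1.49 (limma adjusted p = 0.0817). Without June Jeryak 1 it was −6.62 (adjusted p = 0.000743), so that 1 library decides this call. The values were −4.09 for bta-mir-6715-p3 (adjusted p = 0.227, and 0.00992 without June yak 2) and −2.86 for bta-mir-2340-p3 (adjusted p = 0.271). The calls in yak alone are therefore not shown to differ from the changes in Jeryak.

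Of the 11 tested mature rows of the same precursors, 1 was higher and 3 were lower in December in yak, and 0 were higher and 2 lower in December in Jeryak (background 34% and 40.8% of entries, as for the members). In yak bta-miR-2904 (−3.79, limma adjusted p = 0.000523) and bta-miR-2285t (−1.50, adjusted p = 0.0302) were lower in December, and so they were in Jeryak (−3.67, adjusted p = 0.000742, and −1.39, adjusted p = 0.0362). The calls of bta-miR-2285t did not hold under every alternative, with adjusted p of 0.0124 to 0.111 in yak and 0.00885 to 0.133 in Jeryak. Between the breeds 1 mature row passed in each month, bta-miR-6524, the other arm of the low member bta-mir-6524-p5. It was higher in Jeryak in December (115 ± 4.06 in Jeryak, listed at 0 in yak, adjusted p = 1.7e-05) and in June (157 ± 27.7 in Jeryak and 18.9 ± 7.09 in yak, adjusted p = 0.00641, up to 0.087 over its alternatives). It also passed in the interaction (adjusted p = 0.0219), a call lost under some alternatives (adjusted p up to 0.849). In yak bta-miR-6524 was lower in December, where it was listed at 0 (limma adjusted p = 7.4e-05, up to 0.733 over its alternatives). The mature row higher in December in yak was bta-miR-9851, with 21.2 ± 10.5 in December and listed at 0 in June (limma adjusted p = 0.0106, up to 0.184 over its alternatives). Both of these calls rest on listed zeros. The arm bta-mir-2904-2-p3 was higher in December yak while its mature row was lower, and bta-mir-2285t-p5 passed in neither breed.

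The balance of the arms was therefore compared within each library, as the log2 ratio of the arm to the other arm of its precursor. Since 1 was added to both values, the ratio of a pair with low or 0 values still depends on the worth of a copy in the library. The test ran over 21 cattle pairs whose arms both reached a norm value of 10 in 3 libraries, 16 with both arms named, 4 with an unannotated arm and a mature row, and 1 other. P-values were adjusted over the 21, and the 4 are described. Pairs were matched by name, and whether both rows of a pair come from the same hairpin was not tested. The strands of bta-mir-2904-2-p3 and bta-miR-2904 could pair over 13 base pairs, with no 3′ overhang at either end.

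In yak, 2 of these 4 pairs shifted between December and June (background 19% of the 21 pairs). The arm bta-mir-2904-2-p3 made up 24.8, 17.1 and 27.2% of both arms in December and 0.0714, 0.126 and 0.0366% in June, a log2 shift of 8.64 ± 1.10 (SE, limma adjusted p = 0.000236). The arm bta-mir-6715-p3 made up 73.3, 100 and 72.1% in December and 0, 40.4 and 0% in June (6.32 ± 1.46, adjusted p = 0.00952). With values under 16.5 set to 16.5 its shift was 2.19 (adjusted p = 0.00586, 0.000898 to 0.0303 over its alternatives). Both calls held without any 1 of the 12 libraries.

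In Jeryak, 0 of the 4 pairs passed between the months (background 4.76%), and 1 had an unadjusted p under 0.05 (background 19% by that rule). The arm bta-mir-2904-2-p3 made up 17.7, 16.9 and 25.5% in December and 0.321, 2.05 and 12% in June (3.52 ± 1.10, adjusted p = 0.0639), so the libraries did not overlap. It passed without June Jeryak 3 (adjusted p = 0.00247) and with values under 16.5 set to 16.5 (3.26, adjusted p = 0.00668, 0.00247 to 0.217 over its alternatives).

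Between the breeds in December, 0 of the 4 pairs passed by limma (background 4.76%), and 0 had an unadjusted p under 0.05 (background 14.3% by that rule). In June bta-mir-2904-2-p3 passed alone of the 4, with 0.321, 2.05 and 12% in Jeryak and 0.0714, 0.126 and 0.0366% in yak (4.88 ± 1.10, adjusted p = 0.0175, background 14.3%), with adjusted p of 0.000354 to 0.0728 over its alternatives. In the interaction 0 of the 4 passed (background 0%), and 2 had an unadjusted p under 0.05 (background 19% by that rule). The value for bta-mir-2904-2-p3 was −5.12 (adjusted p = 0.130), and it passed without June Jeryak 1 (−6.42, adjusted p = 0.00254) and with values under 16.5 set to 16.5 (−5.22, adjusted p = 0.00904, 0.00254 to 0.263 over its alternatives). The remaining pairs, bta-mir-2285t and bta-mir-7862, passed in 0 of the 5 comparisons. The arm bta-mir-2285t-p5 made up 22.4, 26.9 and 27.6% of its pair in December and 21.5, 20.4 and 13% in June in Jeryak (0.65 ± 0.49, adjusted p = 0.405). In yak it made up 26, 23 and 25.3% in December and 21.8, 17.1 and 8.72% in June (0.90 ± 0.49, adjusted p = 0.201). Every December library was thus above every June library in both breeds, though the shifts did not pass.

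**Figure D5:**
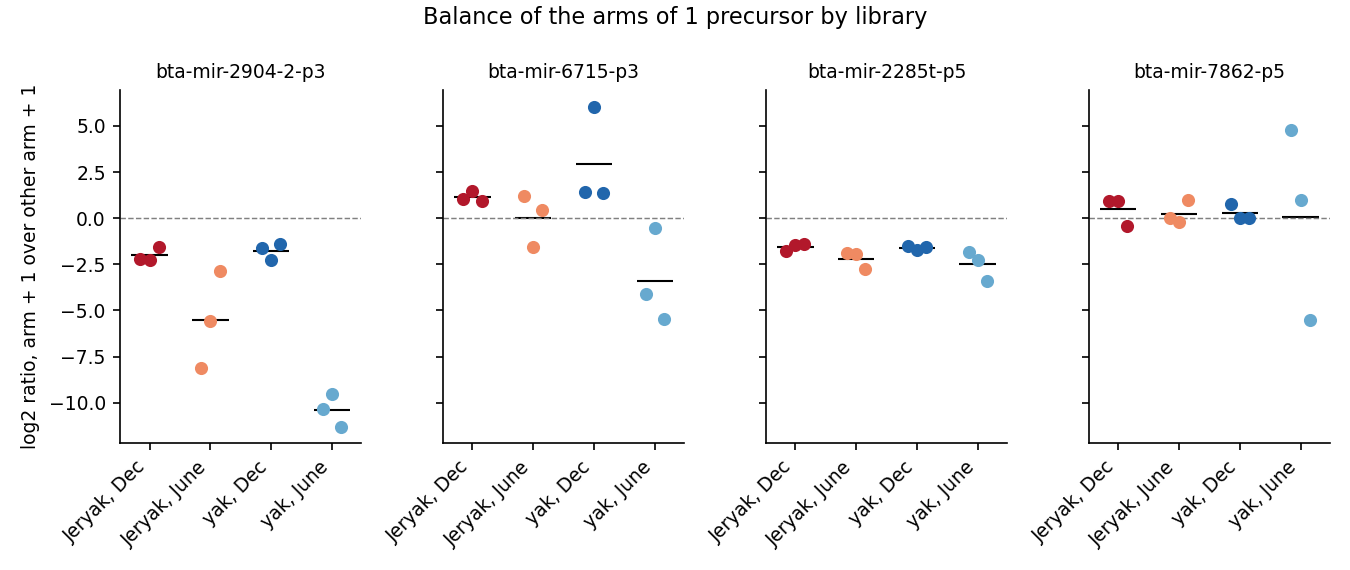
Log2 ratio of the unannotated arm to the other arm of its precursor, norm value plus 1 for each, 1 point per library, in the order December Jeryak, June Jeryak, December yak and June yak. In yak the December libraries lie above the June libraries for bta-mir-2904-2-p3 and bta-mir-6715-p3, while the shift of bta-mir-2285t-p5 in the same direction did not pass (adjusted p = 0.201).

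By the criteria of the study, an unadjusted p under 0.05 on norm values with a log2 fold change of 1 or more in size, other members came forward. In June bta-mir-339a-p3 was lower in Jeryak (−1.26, background 1.27%). In December bta-mir-2284y-1-p5 and bta-mir-2285aa-p5 were higher in Jeryak and bta-mir-12004-p3 lower (background 6.56%). Between the months, bta-mir-502b-p5, bta-mir-2285aa-p5 and bta-mir-12016-p5 were higher in December Jeryak (background 5.87%), and bta-mir-6715-p3 and bta-mir-12004-p3 were higher in December yak (background 5.59%). Most of these are low. The arm bta-mir-12004-p3 had 6.57, 11.4 and 9.32 in December yak and 0 in June yak, where a value of 5.10 to 16.5 would be 5 copies. Only bta-mir-6715-p3 in yak passed both ways.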

How the data were processed

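The 12 libraries of exosomal small RNA from milk were made with the TruSeq Small RNA kit and read from a single end. The norm values, a signal deposited by the authors, were made with ACGT101-miR. They compared unique reads of 18 to 26 nt with miRBase 22 precursors, with 1 mismatch and varying ends allowed, and copies were multiplied by 1 factor per library. No build of the genome is stated in the sources used. Whole reads were not recovered (74.9 to 86.4% of values whole within 0.01 of a copy), so the count test planned for that case was not run. No result is reported for 1 line of the table, and 1 member, counted in the totals, is not reported here on its own.

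log2(norm value + 1) was fitted with limma 3.58.1 (trend) in R 4.3.3, with 1 mean per group over 12 libraries and Benjamini-Hochberg adjustment (threshold 0.05). Pairing of strands used RNAduplex 2.7.2, and a row sharing 12 letters with the arm was barred as its other arm. Tables were handled with Python 3.11.15 and pandas 2.3.3. The fits were tested on simulated data.

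Members and lists were chosen with earlier results of these data known. Members were named by rule, namely the 12 highest means, all that passed a contrast or the arm balance, up to 8 at or above their mature row and up to 8 listed in 12 libraries, up to 2 from each list of miRNAs, and mature rows of these. Members picked by the study's criteria, bta-mir-660-p3, bta-mir-9851-p5, bta-mir-6524-p5 and bta-mir-12063-p5 were named after their values were seen. The lists held 34 (miR-2284 and miR-2285), 7 (other ruminant-named) and 0 (let-7, epithelial, milk-abundant, leukocyte, red cell, stromal, miR-17 clusters, and muscle, liver and neural) members, and 16 members were in no list. Alternatives changed the value added, the minimum, the scaling, the libraries and the detection limit. Replicate numbers were not taken to pair the libraries.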

Additional observations from a re-analysis of the deposited data

How the results depend on the processing

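Among single members and pairs with a low unadjusted limma p in the main fit, no difference changed sign under any alternative run. Members and pairs with weaker differences were not examined for this. For single members and pairs 556 values kept their side of the threshold, 25 lost it and 26 gained it. Depth limits all members under a norm value of about 16.5.

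Against 1, 0, 1, 4 and 0 members passing (June breed, December breed, Jeryak months, yak months, interaction), with no minimum norm value 0, 4, 6, 5 and 1 passed. With 10 added in place of 1, 1 passed in the December breed comparison and 1 in the interaction. Fitted on 6 libraries alone, the June breed count was 0, the December breed count 1 and the Jeryak month count 0. Scaling to library totals gave 2 between Jeryak months. The study's criteria gave 3 in the December breed comparison, 3 between Jeryak months and 2 between yak months. Values under 16.5 set to 16.5 (added after seeing the data) gave 0 in the June breed comparison and 0 between Jeryak months. Leaving out 1 library gave 0 to 1, 0 to 2, 0 to 3, 4 to 4 and 0 to 1.

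For the arm balance, against 1, 0, 0, 2 and 0 of 4 pairs, 10 added gave 1 between Jeryak months and 1 in the interaction, and the 16.5 limit also gave 1 in each. Leaving out 1 library gave 1 to 1, 0 to 0, 0 to 1, 2 to 2 and 0 to 1.

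With the replicate number as a block, 0 members passed in the June breed comparison and 2 between Jeryak months, and the arm balance gave 0 in June and 1 in the interaction. Same-numbered libraries correlated at −0.0622 to 0.138. A library correlated best with its own number for 2 of 3 numbers in the June breed comparison, 0 in December, and 1 in each month comparison, so the numbers are not taken to pair the libraries.

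The rule gave 115 members at 1 library and 18 at 6. The median number of members per library, 40 in December Jeryak, 20 in June Jeryak and 15 in each yak group, was 23, 9 and 6 in December Jeryak at minimum norm values of 3, 10 and 30 and 27 without mismatch-tagged members. It was 8 in June Jeryak at 30, 11 and 8 in December yak at 10 and 30, and 10 and 5 in June yak. At 16.5 (added after seeing the data) it was 8 in December Jeryak, 12 in June Jeryak, 8 in December yak and 8 in June yak. In December yak it was 13 without mismatch-tagged members and 13 with identical sequences counted once. The count test was not run.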
